A study of Rattus norvegicus with 26 samples.

Results

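Metallothionein, glutathione and oxidative stress genes were followed during smooth muscle cell (SMC) differentiation of rat multipotent adult progenitor cells (rMAPCs). They are 10 genes of the 35287 gene names on the array: the metallothioneins *Mt1a* and *Mt3*, the heme and quinone enzymes *Hmox1* and *Nqo1*, the glutathione synthesis subunits *Gclc* and *Gclm*, the peroxidases *Gpx1* and *Gpx3*, the superoxide dismutase *Sod2* and the thioredoxin reductase *Txnrd1*. A gene was found by its name in the scanner files, and of its probes the brightest over all 26 arrays was used, 10 of 15 probes in all. The lines Cl19 and 3c3 are each 1 clone of *Oct4*-expressing cells from bone marrow of female Fischer rats, Cl19 from an age of 3 weeks and 3c3 with the age E18 on its label. Each was sampled before differentiation (d0) and on d2, d4 and d6 of culture with TGFβ1 and PDGF-BB, on 3 arrays each time. Differentiation was in serum-free medium at low oxygen, and for the d0 culture the methods only refer to earlier work. Thus d0 of the same line is the only control, and no arm without the factors was analysed here. Effects of the factors and of any change of medium or oxygen cannot be told apart. The remaining 2 arrays carried purchased primary SMC RNA, which the labels call rat aortic RNA and the methods primary smooth muscle cell RNA of another supplier. Levels are log2 intensities after quantile normalization, and a difference of 1 on this scale is a 2-fold change.

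Metallothioneins are small cysteine-rich proteins that bind zinc and copper, and their genes are switched on by metal through the factor MTF1, which binds short metal response elements next to the start of the gene. Many enzymes of glutathione synthesis, heme breakdown and thioredoxin reduction are instead controlled by NRF2, which binds antioxidant response elements together with small MAF proteins and is held back by KEAP1. In vascular smooth muscle both systems are known for buffering reactive oxygen, and heme oxygenase is known for its action on the growth of these cells.

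Since metallothionein genes are read through metal response elements, the bases upstream of their starts are shown here for *Mt1* (the RefSeq name of the gene listed as *Mt1a*), for *Mt3*, and for *Mt2A*, the neighbouring metallothionein gene of the wider pathway list. Each run holds 250 bases that end just before the start, from RefSeq on GRCr8, read on the minus strand at chr19:10832976-10833225 for *Mt1*, chr19:10838709-10838958 for *Mt2A* and chr19:10856081-10856330 for *Mt3*, with matches to the metal response element in capitals.
Mt1: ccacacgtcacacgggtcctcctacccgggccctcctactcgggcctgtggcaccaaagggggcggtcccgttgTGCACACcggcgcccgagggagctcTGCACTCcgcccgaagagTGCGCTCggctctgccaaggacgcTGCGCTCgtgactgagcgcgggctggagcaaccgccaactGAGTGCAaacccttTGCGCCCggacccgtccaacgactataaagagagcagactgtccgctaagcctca
Mt2A: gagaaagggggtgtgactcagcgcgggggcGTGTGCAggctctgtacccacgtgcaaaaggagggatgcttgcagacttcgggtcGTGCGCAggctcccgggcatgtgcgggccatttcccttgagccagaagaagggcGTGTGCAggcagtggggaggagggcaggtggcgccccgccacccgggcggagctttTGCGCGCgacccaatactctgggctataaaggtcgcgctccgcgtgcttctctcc
Mt3: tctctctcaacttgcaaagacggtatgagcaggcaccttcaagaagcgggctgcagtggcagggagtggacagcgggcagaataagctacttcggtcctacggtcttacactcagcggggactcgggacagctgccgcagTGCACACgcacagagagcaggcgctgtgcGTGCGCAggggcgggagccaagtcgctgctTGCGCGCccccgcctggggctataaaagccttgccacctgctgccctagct
The letters searched were TGCACNC and TGCGCNC on both strands. *Mt1* held 6 matches, *Mt2A* 4 and *Mt3* 3, and the nearest lay 55, 55 and 51 bases before the start. Of 33469 RefSeq promoters searched over the same length, 20.6% held a match, and 0.0747% held 5 or more. Of the metallothionein genes shown, only *Mt1* reached 5, and no share was computed at the counts of *Mt2A* and *Mt3*. Among the other members with a promoter entry, *Gclm* held 2 matches, and *Nqo1*, *Gclc*, *Gpx1*, *Gpx3*, *Sod2* and *Txnrd1* held none in this window. The antioxidant response element was searched as TGACNNNGC on both strands and was found in 3373 of the 33469 promoters. Within the 250 bases it had 1 match each upstream of *Mt1*, *Mt2A*, *Gclm* and *Sod2* and 1 match at 1 of the 2 starts of *Txnrd1*. None was found within the 250 bases upstream of *Mt3*, *Nqo1*, *Gclc*, *Gpx1* and *Gpx3*, and bases farther upstream were not searched. No match overlapped another, and a match describes letters and not a bound site. *Hmox1* had no entry.

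The share of gene features well above background lay between 43.2% and 61.4% on the rMAPC arrays and at 43.6% and 44.5% on the primary SMC arrays. Each of the 7 slides held the 4 days of 1 replicate of 1 line or the primary SMC RNA, and each of the 3 scan days held 1 line or the primary SMC RNA, so that for levels the line and the scan day cannot be told apart. The slide of 3c3 replicate 3 had a higher background (median negative control signal 62.46 to 79.0 against 44.86 to 48.05 on all other arrays). The array labelled Cl19 d2 replicate 1 lay nearer to the 3c3 arrays of d2 (root mean square difference 0.382 to 0.538) than to the other Cl19 arrays of d2 (0.876 and 0.917), and Cl19 values of d2 are therefore also given without it. Of 6 smooth muscle markers with a probe, 4 were well above background on every d0 array of each line, and the log2 levels of all 6 summed to between 32.62 and 35.02 on d0 and between 54.04 and 54.95 on d6 in Cl19, and to between 33.47 and 36.20 and between 49.52 and 53.72 in 3c3. In primary SMCs all 6 were well above background, with sums of 64.31 and 65.10. *Myocd* had a mean of 7.04 there, but was well above background on only 1 of 3 Cl19 d6 arrays and on no 3c3 d6 array. Sums over 5 fibroblast markers lay between 19.65 and 21.45 on d0 and between 34.57 and 36.38 on d6 in Cl19, and between 20.42 and 21.82 and between 20.10 and 24.74 in 3c3, where *Dcn*, *Lum* and *Col3a1* were not well above background on either day. In Cl19 *Col3a1* was not so on either day, the mean of *Pdgfra* went from 12.34 to 10.41, and the means of *Dcn*, *Lum* and *Col1a1* rose to 2.97, 7.67 and 13.26. All 5 were well above background in primary SMCs, with sums of 56.73 and 56.84. Sums over 6 leukocyte markers lay between 19.47 and 21.83 on d0 in both lines, between 24.55 and 24.99 on d6 in Cl19 and between 29.32 and 31.72 on d6 in 3c3, with *Itgam* not well above background on any of these arrays. *Ptprc* was well above background on 1 of 3 Cl19 d6 arrays and on no other of them. On the primary SMC arrays the leukocyte sums were 26.35 and 28.52. *Ptprc* was well above background on both (4.98 and 5.24) and *Cd14* had a mean of 9.65, while *Itgam* and *Lyz* were not well above background. From d0 to d6 in 3c3, the mean of *Csf1r* went from 3.93 to 10.17 and that of *Lyz* from 0.90 to 4.96. Means of *Cd68* went from 6.65 to 6.87 and of *Cd14* from 6.97 to 7.03. Sums over 6 rMAPC markers lay between 71.94 and 72.39 on d0 and between 49.86 and 53.83 on d6 in Cl19, and between 73.75 and 74.37 and between 65.59 and 65.97 in 3c3, with all 6 well above background on d0. In primary SMCs they were 25.24 to 27.70, with *Pou5f1*, *Gata4* and *Sox7* not well above background. From d0 to d6 the mean of *Foxa2* rose, from 13.27 to 13.93 in Cl19 and from 13.39 to 13.88 in 3c3. Means of the other rMAPC markers fell in both lines. The part of these cell types in the results was not tested.

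Testing was restricted to 24441 probes that all arrays of some group measured well above background, which included 8 of the 10 genes and left out *Gclm* and *Sod2*. The threshold was an adjusted p below 0.05 by limma. On d6 against d0, Cl19 had 2 genes higher and 3 lower (22.0% and 30.3% of all probes), and 3c3 had 2 genes higher and 3 lower (19.7% and 28.6%). The median change of the 8 genes was -0.66 in Cl19 and -0.58 in 3c3, beside -0.20 and -0.21 over all tested probes. Already on d2, 1 gene was higher and 2 lower in Cl19 (11.2% and 11.5% of all probes), 3 in all, which became 5 with the replicate number as a block and 4 without the array labelled Cl19 d2 replicate 1. In 3c3, 2 were higher and 3 lower on d2 (9.80% and 9.27%). Calls over all probes on d2 went from 2731 higher and 2803 lower to 3086 in all without Cl19 replicate 2 and 2594 without Cl19 replicate 3, and from 2396 and 2266 to 2321 without 3c3 replicate 1 and 2283 without 3c3 replicate 3. Without the slide of 3c3 replicate 3, only *Mt1a* and *Gpx1* were past the threshold on d6 in 3c3. The change from d0 to d6 differed between the lines for 2 genes (17.4% of all probes), and with 3c3 replicate 3 left out for none. On that day the smooth muscle, rMAPC, fibroblast and leukocyte marker sums of the lines did not overlap either. Nor did sums over 5 endothelial markers (11.29 to 14.16 in Cl19 and 18.78 to 20.61 in 3c3). The change from d0 to d2 differed for 0 genes after limma's adjustment (0.323% of all probes) and at an unadjusted p below 0.05 for 1 with a higher and 2 with a lower change in Cl19.

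**Figure D1:**
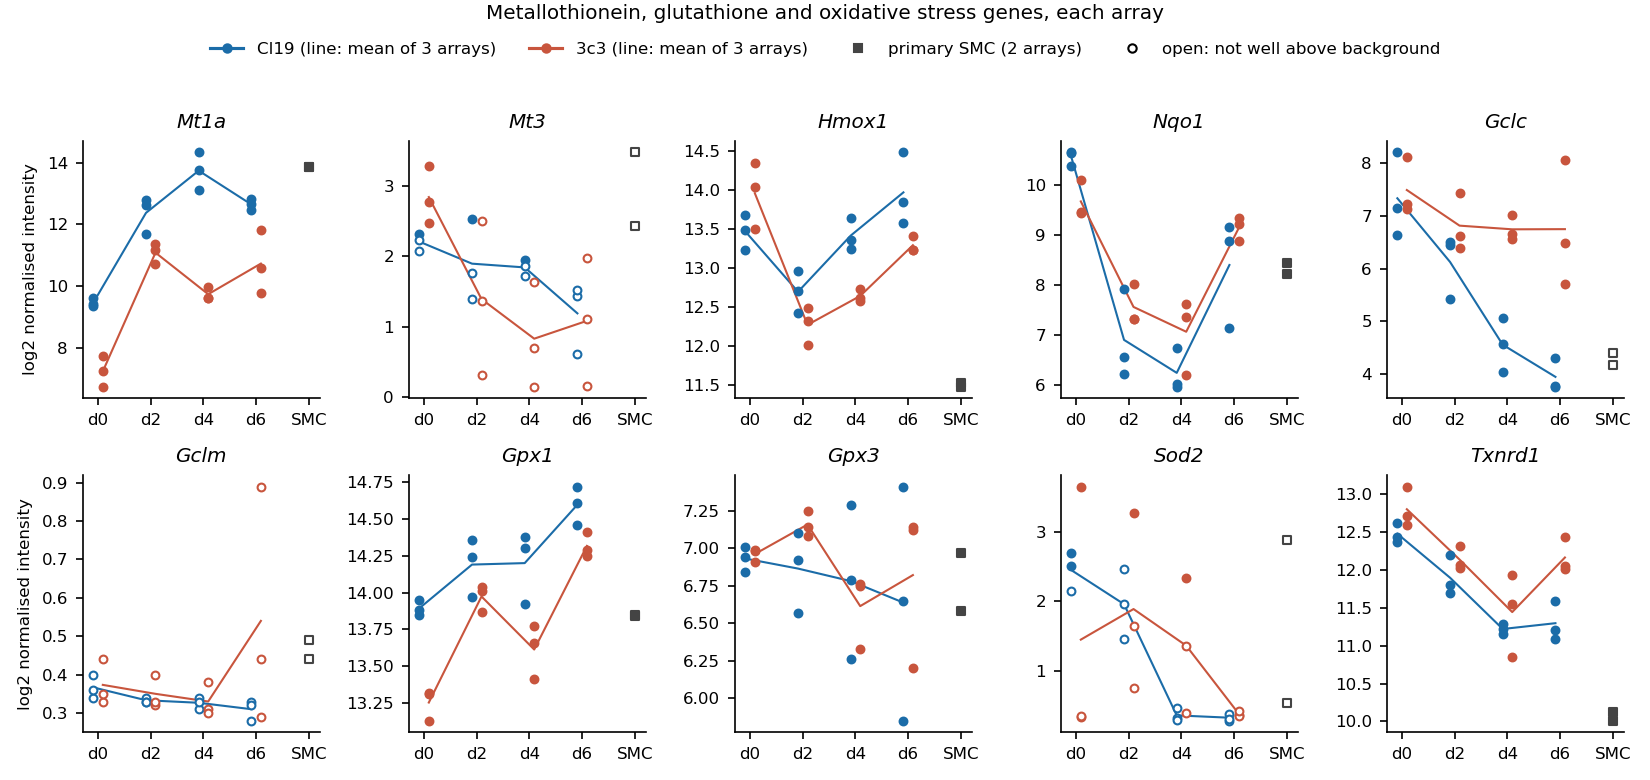
Log2 normalised intensity of the brightest probe of each of the 10 genes on every array, by day and for primary SMC RNA (SMC), with lines through the means of 3 arrays and open symbols where a probe was not well above background. *Mt1a* lay higher on every d2, d4 and d6 array than on any d0 array of the same line, *Nqo1* and *Txnrd1* lay lower, and *Gclm* stayed between 0.28 and 0.89.

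*Mt1a*, which encodes the main inducible metallothionein, showed the largest rise of the 8 tested genes in both lines. In Cl19 its probe was at 9.35, 9.43 and 9.63 on d0, at 11.68, 12.64 and 12.80 on d2, at 14.33, 13.11 and 13.77 on d4 and at 12.46, 12.81 and 12.66 on d6. In 3c3 the levels were 7.74, 6.76 and 7.25 on d0, 11.37, 11.16 and 10.73 on d2, 9.98, 9.63 and 9.62 on d4 and 11.82, 9.79 and 10.59 on d6. Every later array lay above every d0 array of its line, with the highest mean on d4 in Cl19 and on d2 in 3c3. From d0 to d2 it rose 7.46-fold in Cl19 (log2 change 2.90 ± 0.40, SE, adjusted p = 2.7e-05) and 14.3-fold in 3c3 (3.84 ± 0.40, adjusted p = 1.1e-06). From d0 to d6 it rose 9.02-fold in Cl19 (3.17 ± 0.40, adjusted p = 1.8e-06) and 11.2-fold in 3c3 (3.48 ± 0.40, adjusted p = 9.3e-07). In RNA of whole cultures, more cells of a type that holds the transcript and more transcript per cell cannot be told apart. The rises were past the threshold in all 15 alternatives computed, and without the array labelled Cl19 d2 replicate 1 the rise on d2 in Cl19 was 3.25. The size of the change did not differ between the lines past the threshold, with a difference of -0.31 on d6 (95% interval -1.50 to 0.87, adjusted p = 0.83).

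Before differentiation *Mt1a* was already 4.67-fold higher in Cl19 than in 3c3 (2.22 ± 0.40, adjusted p = 0.0028), and no d0 array of one line reached those of the other. With the mean over both probes of the gene this difference was 1.11 (adjusted p = 0.22), but no d0 array of either line measured the dimmer probe well above background. Ordered by their means, the groups ran from 3c3 d0 (7.25) over Cl19 d0 (9.47), 3c3 d4 (9.74), 3c3 d6 (10.74), 3c3 d2 (11.09), Cl19 d2 (12.37), Cl19 d6 (12.65) and Cl19 d4 (13.73) to primary SMCs (13.86). Neighbours in this order had separate arrays only between 3c3 d0 and Cl19 d0, between 3c3 d2 and Cl19 d2 and between Cl19 d6 and Cl19 d4. The primary SMC arrays stood at 13.86 and 13.85, 8.70-fold above 3c3 on d6 (3.12 ± 0.45, adjusted p = 3.8e-06) and 2.31-fold above Cl19 on d6 (1.21 ± 0.45, adjusted p = 0.021). That difference from Cl19 was not past the threshold without Cl19 replicate 3 (1.22, adjusted p = 0.055) or without either primary SMC array (1.20 and 1.22, adjusted p = 0.079 and 0.076), and it turned to -0.31 with the authors' log2 table, which is not normalized between arrays, and to -0.81 with the mean over both probes. The difference from 3c3 was 1.52 with the authors' table (adjusted p = 0.0023) and 0.42 with the mean over both probes, where it lost its call (adjusted p = 0.42). With the authors' table the median over all tested probes was -2.17 against Cl19 d6 and -2.09 against 3c3 d6. The dimmer probe was not well above background on the primary SMC arrays, so that means over both probes give no level there.

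The 2 probes named *Mt1a* lie on chromosome 19 of rn4, the brighter from 11261706 to 11261765 and the dimmer from 11262268 to 11262327. No d0 array measured the dimmer probe well above background (0.30 to 0.40), and it was at 2.89, 4.23 and 2.68 on d2, 6.32, 4.29 and 5.28 on d4 and 3.71, 3.19 and 2.73 on d6 in Cl19. It was therefore at least 1.85-fold higher on d2 and at least 1.78-fold higher on d6 than on d0 in Cl19 (adjusted p = 4.8e-04 and 1.5e-04), bounds taken against the detection limit of the d0 arrays. In 3c3, 2 of 3 arrays measured it well above background on d2 and on d6, with d6 at least 1.00-fold higher (adjusted p = 0.0013). Both probes thus moved the same way over time in Cl19. In 3c3 the bound for the dimmer probe was under 1 on d2 and 1.00 on d6, which gives no direction. On the primary SMC arrays the brighter probe was high, and the dimmer one was not well above background (0.40 and 0.37). The detection limit there (3.90 to 3.99) lay above the mean of the dimmer probe on d6 in Cl19 (3.21), so that these levels cannot be compared. The 60 bases of the brighter probe share runs of at most 4 bases with the dimmer one, 5 with the *Mt2A* probe and 9 with the *Mt3* probe.

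*Mt2A*, the other widely expressed metallothionein, followed a similar course. Its levels in Cl19 were 9.67, 9.72 and 9.79 on d0, 10.91, 10.79 and 10.94 on d2, 13.07, 11.54 and 12.41 on d4 and 10.56, 11.02 and 10.91 on d6. In 3c3 they were 8.76, 7.88 and 8.09 on d0, 10.37, 10.33 and 9.92 on d2, 9.18, 8.49 and 8.78 on d4 and 10.86, 9.21 and 9.79 on d6, and 12.92 and 12.89 in primary SMCs. As for *Mt1a*, the d2 and d6 arrays of each line lay above all its d0 arrays, the highest mean was on d4 in Cl19 and on d2 in 3c3, and the primary SMC arrays were above all d6 arrays. The rise to d6 was 2.15-fold in Cl19 (1.10 ± 0.36, adjusted p = 0.014) and 3.27-fold in 3c3 (1.71 ± 0.36, adjusted p = 5.8e-04). In Cl19 it was not past the threshold without replicate 2 (1.01, adjusted p = 0.065), without replicate 3 (1.09, adjusted p = 0.086) or with scaling by the 75th percentile (0.86, adjusted p = 0.053). *Mtf1*, the metal-sensing factor, changed by -0.50 ± 0.44 in Cl19 and 0.20 ± 0.44 in 3c3 (adjusted p = 0.36 and 0.73).

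**Figure D2:**
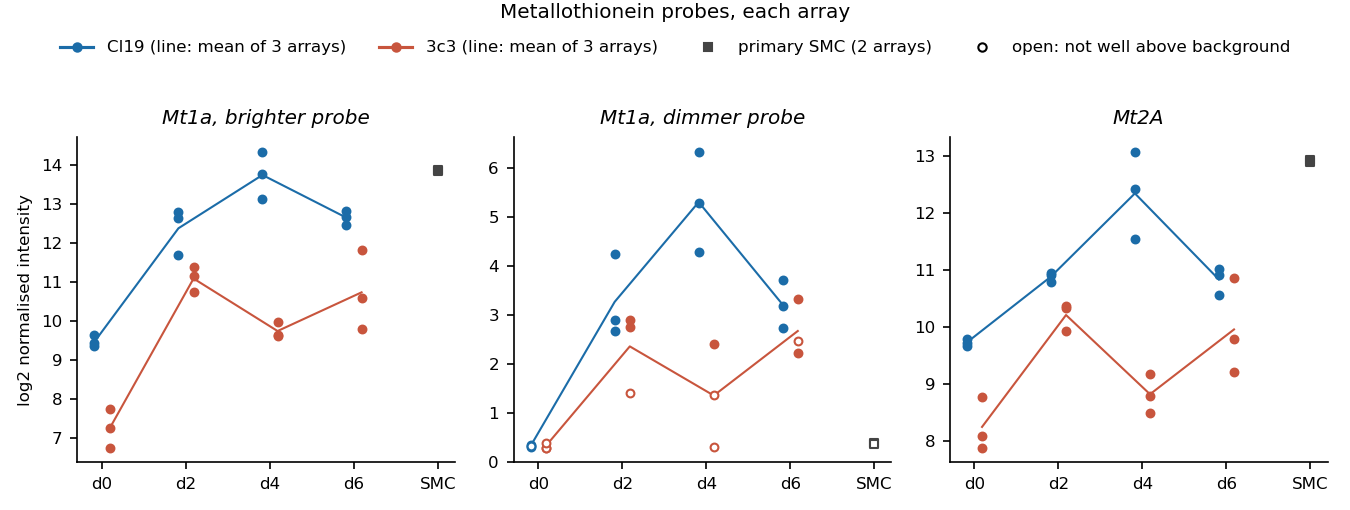
Log2 normalised intensity of the brighter and the dimmer *Mt1a* probe and of the *Mt2A* probe on every array, by day and for primary SMC RNA (SMC), with lines through the means of 3 arrays and open symbols where a probe was not well above background. All 3 probes were lowest on d0 in both lines by their means. The primary SMC arrays were high for the brighter *Mt1a* probe (13.86 and 13.85) and *Mt2A* (12.92 and 12.89). The dimmer *Mt1a* probe read near 0.4 there and was not well above background.

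*Mt3*, a metallothionein known mainly from brain, was near the detection limit throughout. In 3c3 all 3 d0 arrays measured it well above background, at 2.48, 2.77 and 3.28, and no later array did. In Cl19, 1 of 3 arrays did so on d0, on d2 and on d4 and none on d6, and neither primary SMC array did. It was at least 1.01-fold lower on d6 than on d0 in 3c3 (adjusted p = 0.0076), a bound near 1 whose fitted change of -1.76 was not past the threshold without 3c3 replicate 3 (-1.08, adjusted p = 0.11). The fitted change was -0.01 (adjusted p = 0.99) when values were set to no less than the detection limit.

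Among the genes of heme and quinone metabolism, *Hmox1*, the inducible heme oxygenase, had its lowest mean on d2 in both lines. In Cl19 it was at 13.49, 13.68 and 13.23 on d0, 12.42, 12.96 and 12.70 on d2, 13.36, 13.24 and 13.64 on d4 and 13.84, 14.48 and 13.58 on d6. In 3c3 it was at 14.34, 13.50 and 14.03 on d0, 12.48, 12.01 and 12.32 on d2, 12.58, 12.61 and 12.73 on d4 and 13.23, 13.23 and 13.41 on d6. All d2 arrays of each line lay below its d0 arrays, and on d6 the Cl19 arrays overlapped d0 while the 3c3 arrays were all lower. The fall to d2 was 3.22-fold in 3c3 (-1.69 ± 0.23, adjusted p = 2.2e-05) and 1.71-fold in Cl19 (-0.77 ± 0.23, adjusted p = 0.017). In Cl19 it was not past the threshold without the array labelled Cl19 d2 replicate 1 (-0.64, adjusted p = 0.07) or without all of replicate 1 (-0.62, adjusted p = 0.16).

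On d6 *Hmox1* had changed by 0.50 ± 0.23 in Cl19 (adjusted p = 0.071, and 0.038 with the replicate number as a block) and had fallen 1.59-fold in 3c3 (-0.67 ± 0.23, adjusted p = 0.020). The fall in 3c3 was not past the threshold without its replicate 1 (-0.44, adjusted p = 0.22) or replicate 3 (-0.69, adjusted p = 0.09). The changes of the lines differed by 1.16 ± 0.32 (95% interval 0.50 to 1.83, adjusted p = 0.014), a difference that also lost its call without 3c3 replicate 1 (0.94, adjusted p = 0.09) or replicate 3 (1.19, adjusted p = 0.068). Primary SMCs had the lowest levels of all, 11.53 and 11.48, which was 5.50-fold below Cl19 d6 (-2.46 ± 0.25, adjusted p = 4.1e-08) and 3.44-fold below 3c3 d6 (-1.78 ± 0.25, adjusted p = 3.1e-06).

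*Nqo1*, a quinone reductase widely used as a readout of NRF2, showed a deeper trough. In Cl19 it was at 10.64, 10.66 and 10.39 on d0, 7.92, 6.56 and 6.23 on d2, 5.97, 6.02 and 6.74 on d4 and 8.89, 9.17 and 7.15 on d6. In 3c3 it was at 10.11, 9.45 and 9.47 on d0, 8.03, 7.33 and 7.33 on d2, 7.63, 6.21 and 7.36 on d4 and 9.34, 9.22 and 8.89 on d6. No later array reached a d0 array of its line, and in both lines the mean was lowest on d4. On d2 it had fallen 12.6-fold in Cl19 (-3.66 ± 0.47, adjusted p = 1.3e-05) and 4.32-fold in 3c3 (-2.11 ± 0.47, adjusted p = 0.0034). The highest of the Cl19 d2 levels was on the array labelled Cl19 d2 replicate 1, without which the change was -4.17. On d6 it was still 4.48-fold lower than on d0 in Cl19 (-2.16 ± 0.47, adjusted p = 7.1e-04), whereas in 3c3 the change was -0.53 (95% interval -1.51 to 0.46, adjusted p = 0.39). The difference of these changes, -1.64 ± 0.67, was not past the threshold (adjusted p = 0.11), but it was with the slide as a random block (adjusted p = 0.05 after rounding up) and with normexp background correction (-1.43, adjusted p = 0.042). The primary SMC levels of 8.23 and 8.44 lay within the range of Cl19 d6 and below all 3c3 d6 arrays, with differences of -0.07 and -0.81 (adjusted p = 0.92 and 0.18).

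*Gclc*, the catalytic subunit of the enzyme that sets the pace of glutathione synthesis, fell on d6 in Cl19. Its Cl19 levels were 7.16, 8.21 and 6.64 on d0, 6.51, 6.44 and 5.43 on d2, 5.07, 4.56 and 4.03 on d4 and 3.77, 4.30 and 3.76 on d6. In 3c3 they were 7.13, 8.13 and 7.22 on d0, 6.62, 7.43 and 6.40 on d2, 6.66, 7.01 and 6.57 on d4 and 5.70, 8.07 and 6.48 on d6. On d0 the lines overlapped, on d4 and d6 every Cl19 array lay below every 3c3 array, and 3c3 replicate 2 was the highest array on each day of that line. From d0 to d6 *Gclc* fell 10.5-fold in Cl19 (-3.40 ± 0.50, adjusted p = 1.1e-05, or -1.48 with normexp background correction), and in 3c3 the change was -0.74 (95% interval -1.79 to 0.30, adjusted p = 0.23). The lines differed by -2.65 ± 0.71 in this change (95% interval -4.13 to -1.18, adjusted p = 0.012). The difference was not past the threshold without Cl19 replicate 2 (-2.39, adjusted p = 0.058), without 3c3 replicate 3 (-2.65, adjusted p = 0.057) or with normexp background correction (-1.03, adjusted p = 0.098). On d2 the change in Cl19 was -1.21 ± 0.50 (adjusted p = 0.092, and 0.0086 with the replicate number as a block). The probe was not well above background on either primary SMC array. Its own reading there, which lay above the detection limit and so sets the bound, was at least 5.55-fold lower than in 3c3 on d6 (-2.47, adjusted p = 5.7e-04), but the difference was -1.11 with normexp and lost its call in the test named in the methods (adjusted p = 0.11). *Gclm*, the regulatory subunit of the same enzyme, was not well above background on any of the 26 arrays, so that its probe gave no level to compare.

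**Figure D3:**
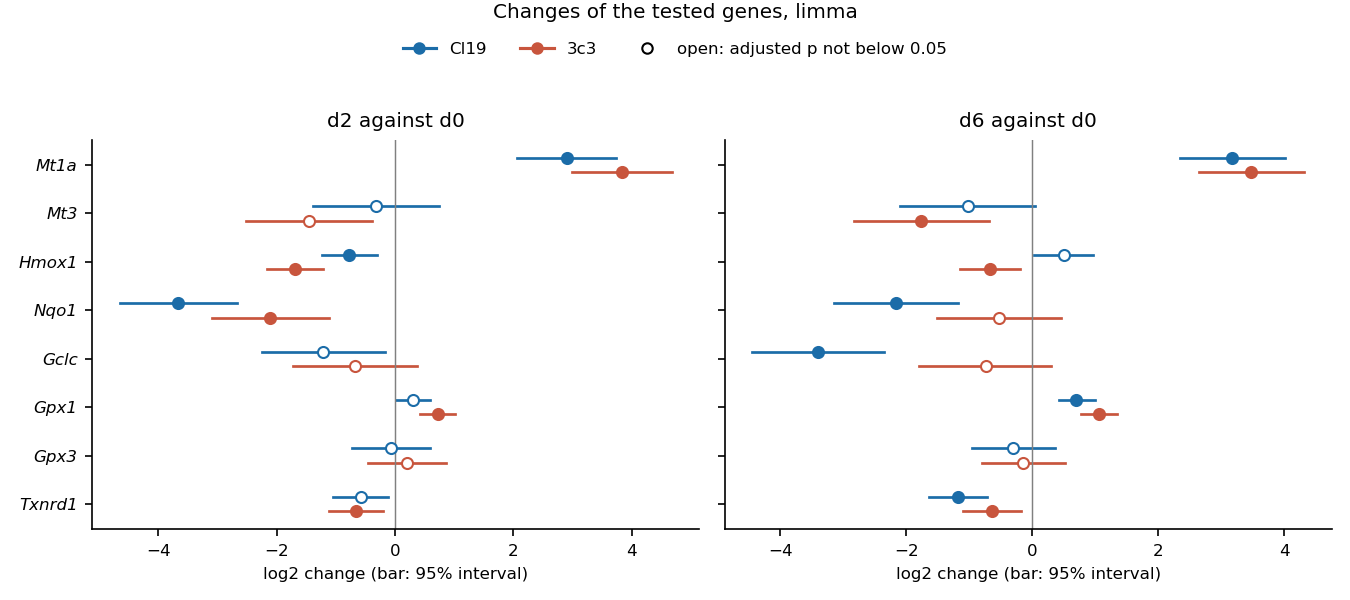
Log2 change of the 8 tested genes on d2 and d6 against d0 by line, with 95% intervals from limma and open symbols where the adjusted p was not below 0.05. *Mt1a* stands at 2.90 to 3.84 in both lines on both days, while *Gclc* on d6 is at -3.40 in Cl19 and -0.74 in 3c3.

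*Gpx1*, the main cytosolic glutathione peroxidase, rose in both lines by less than *Mt1a* but with a small spread. In Cl19 its levels were 13.85, 13.95 and 13.88 on d0, 13.97, 14.36 and 14.24 on d2, 13.92, 14.38 and 14.30 on d4 and 14.61, 14.72 and 14.46 on d6. In 3c3 they were 13.13, 13.32 and 13.31 on d0, 14.04, 13.87 and 14.01 on d2, 13.66, 13.41 and 13.77 on d4 and 14.41, 14.25 and 14.29 on d6. Every d6 array lay above all d0, d2 and d4 arrays of its line. The rise to d6 was 1.63-fold in Cl19 (0.70 ± 0.14, adjusted p = 2.4e-04), or 0.30 with scaling by the 75th percentile (adjusted p = 0.11), and 2.09-fold in 3c3 (1.06 ± 0.14, adjusted p = 3.9e-06). On d2 it had risen in 3c3 (0.72 ± 0.14, adjusted p = 8.7e-04), and in Cl19 the change was 0.30 ± 0.14 (adjusted p = 0.14, and 0.41 with an adjusted p of 0.046 without the array labelled Cl19 d2 replicate 1). On d0 *Gpx1* was 1.56-fold higher in Cl19 than in 3c3 (0.64 ± 0.14, adjusted p = 0.011), a call lost without Cl19 replicate 2 or 3 (0.61 and 0.65, adjusted p = 0.05 and 0.074) and without 3c3 replicate 1 or 3 (0.58 and 0.67, adjusted p = 0.10 and 0.073). The primary SMC arrays, at 13.84 and 13.85, were lower than d6 by 0.75 (SE 0.15) against Cl19 and 0.47 (SE 0.15) against 3c3 (log2 change -0.75 and -0.47, adjusted p = 2.3e-04 and 0.010), but with scaling by the 75th percentile, which moved the median over all probes from -0.13 to 0.21, these differences turned to 0.13 and 0.39.

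*Gpx3*, the secreted plasma glutathione peroxidase, showed no change past the threshold in any comparison made. Its levels ran from 5.85 to 7.41 in Cl19, from 6.20 to 7.25 in 3c3 and were 6.97 and 6.58 in primary SMCs. The d6 arrays of each line overlapped its d0 arrays, while the 3c3 arrays of d2 (7.08 to 7.25) lay above those of d0 and d4. The d6 change was -0.30 in Cl19 (95% interval -0.96 to 0.37, adjusted p = 0.46) and -0.14 in 3c3 (-0.80 to 0.52, adjusted p = 0.75).

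*Txnrd1*, the cytosolic thioredoxin reductase, fell in both lines. In Cl19 its levels were 12.44, 12.62 and 12.37 on d0, 12.20, 11.80 and 11.69 on d2, 11.16, 11.28 and 11.22 on d4 and 11.09, 11.21 and 11.59 on d6. In 3c3 they were 13.10, 12.59 and 12.71 on d0, 12.31, 12.07 and 12.03 on d2, 11.93, 10.85 and 11.55 on d4 and 12.43, 12.05 and 12.01 on d6. All later arrays lay below all d0 arrays of the same line. The fall to d6 was 2.27-fold in Cl19 (-1.18 ± 0.22, adjusted p = 1.5e-04) and 1.56-fold in 3c3 (-0.64 ± 0.22, adjusted p = 0.022), and in 3c3 it was not past the threshold without replicate 3 (-0.61, adjusted p = 0.12). The change to d2 was -0.66 ± 0.22 in 3c3 (adjusted p = 0.042, and 0.20 without replicate 3) and -0.58 ± 0.22 in Cl19 (adjusted p = 0.067, 0.019 with the replicate number as a block, and 0.032 without the array labelled Cl19 d2 replicate 1). Of the 3 other *Txnrd1* probes, 2 changed on d6 by -0.70 and -0.91 in Cl19 (adjusted p = 0.0041 and 0.0047) and by -0.04 and -0.30 in 3c3 (adjusted p = 0.89 and 0.36), and the dimmest was well above background on at most 2 of 3 arrays in any rMAPC group. The scanner files place this dimmest probe on the plus strand, opposite to the gene and its 3 other probes, and any mean over all 4 probes includes it. With the mean over all 4 probes the d6 change in 3c3 was -0.31 (adjusted p = 0.26). Primary SMCs, at 10.12 and 10.01, lay below every rMAPC array, 2.35-fold under Cl19 d6 (-1.23 ± 0.25, adjusted p = 1.8e-04) and 4.27-fold under 3c3 d6 (-2.09 ± 0.25, adjusted p = 2.8e-07). With the mean over all 4 probes the difference from Cl19 d6 was -0.27 (adjusted p = 0.34), which includes the opposite-strand probe, higher in primary SMCs than in Cl19 and 3c3 on d6 by 2.67 and 3.05.

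*Sod2*, the mitochondrial superoxide dismutase, was too dim for the test. Its probe was well above background on 2 of 3 Cl19 d0 arrays (2.14, 2.70 and 2.50 over the 3 arrays), and in 3c3 on replicate 2 of d0, d2 and d4 (3.65, 3.27 and 2.34), and on no other array. The primary SMC arrays read 0.53 and 2.88, not well above background.

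Set side by side, the undifferentiated lines differed in 2 of the 8 genes, *Mt1a* and *Gpx1*, both higher in Cl19 (2.00% of all probes were higher in Cl19 past the threshold and 1.08% lower, 488 and 263 probes, but only 327 to 480 in all when any 1 of Cl19 replicates 2 and 3 or of the 3c3 replicates was left out), and in 0 genes that were lower in Cl19, or 1 at an unadjusted p below 0.05. Against Cl19 d6, primary SMCs had 2 genes past the threshold with a higher reading, *Mt1a* and *Mt3*, and 3 lower, *Hmox1*, *Gpx1* and *Txnrd1* (32.8% and 38.6% of all probes). Against 3c3 d6 the same 2 genes had a higher reading and *Gclc* joined the 3 lower ones (33.4% and 38.1%). For *Mt3* no array of either side was well above background, so that its readings give no direction and no fold. Its adjusted p was not below the threshold without Cl19 replicate 2 (0.064) or without primary SMC replicate 1 (0.14 against Cl19 and 0.11 against 3c3). These comparisons cross scan days, and both use the same 2 primary SMC arrays.

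The wider pathway was read from 68 other genes of metal handling, glutathione, thioredoxin and NRF2 control, of which 66 had a probe and 61 were tested. On d6, Cl19 had 16 of them higher and 20 lower (median change 0.04), beside 22.0% and 30.3% of all probes, and 3c3 had 23 higher and 14 lower (0.23), beside 19.7% and 28.6%. In both lines 22 were past the threshold with the same sign and 3 with opposite signs. On d2 the counts were 10 higher and 15 lower for Cl19, beside 11.2% and 11.5% of all probes, and 13 higher and 7 lower for 3c3, beside 9.80% and 9.27%. The d6 change differed between the lines for 14 of them (17.4% of all probes), lower in Cl19 for 12, and the d2 change for 0 by limma after adjustment, or at an unadjusted p below 0.05 for 1 higher and 6 lower in Cl19.

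Glutathione S-transferases, which couple glutathione to reactive compounds, were the list with the most rises. Of 15 tested, Cl19 had 8 higher and 5 lower on d6 (median 0.92), beside 22.0% and 30.3% of all probes. In 3c3, 11 were higher and 1 lower (median 1.52), beside 19.7% and 28.6%. *Gstt2* rose 6.22-fold in Cl19 (2.64 ± 0.21, adjusted p = 5.7e-09) and 3.69-fold in 3c3 (1.88 ± 0.21, adjusted p = 7.3e-07). The membrane-bound *Mgst2* rose 17.3-fold in 3c3 (4.12 ± 0.43, adjusted p = 2.8e-07), from 8.79, 8.27 and 8.13 to 12.58, 12.53 and 12.43. In Cl19 its rise of 1.22 ± 0.43 (adjusted p = 0.022) was 0.58 without replicate 2 (adjusted p = 0.26). *Mgst3* rose by 0.92 in Cl19 and 2.49 in 3c3 (adjusted p = 7.2e-04 and 1.1e-08).

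The 3 genes with opposite signs were all glutathione S-transferases, and they are named here after their values were seen. *Gsta2* fell 17.2-fold in Cl19, from 12.84, 13.37 and 13.14 on d0 to 9.40, 8.39 and 9.25 on d6 (-4.10 ± 0.35, adjusted p = 1.2e-08). In 3c3 it rose 3.50-fold, from 11.85, 11.48 and 11.18 to 13.86, 13.08 and 13.00 (1.81 ± 0.35, adjusted p = 2.9e-04). On d6 every 3c3 array thus lay above every Cl19 array, the reverse of d0. *Gstm2* changed by -1.56 in Cl19 and 0.89 in 3c3 (adjusted p = 9.6e-06 and 0.0031), and *Gstk1* by -1.30 and 1.01 (adjusted p = 1.9e-04 and 0.0023). Members of the alpha and mu classes are close in sequence, and whether a probe reads its neighbours was not tested. In this list the d6 change was lower in Cl19 than in 3c3 past the threshold for 8 of 15 genes, beside 17.4% of all probes that differed in either direction.

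**Figure D4:**
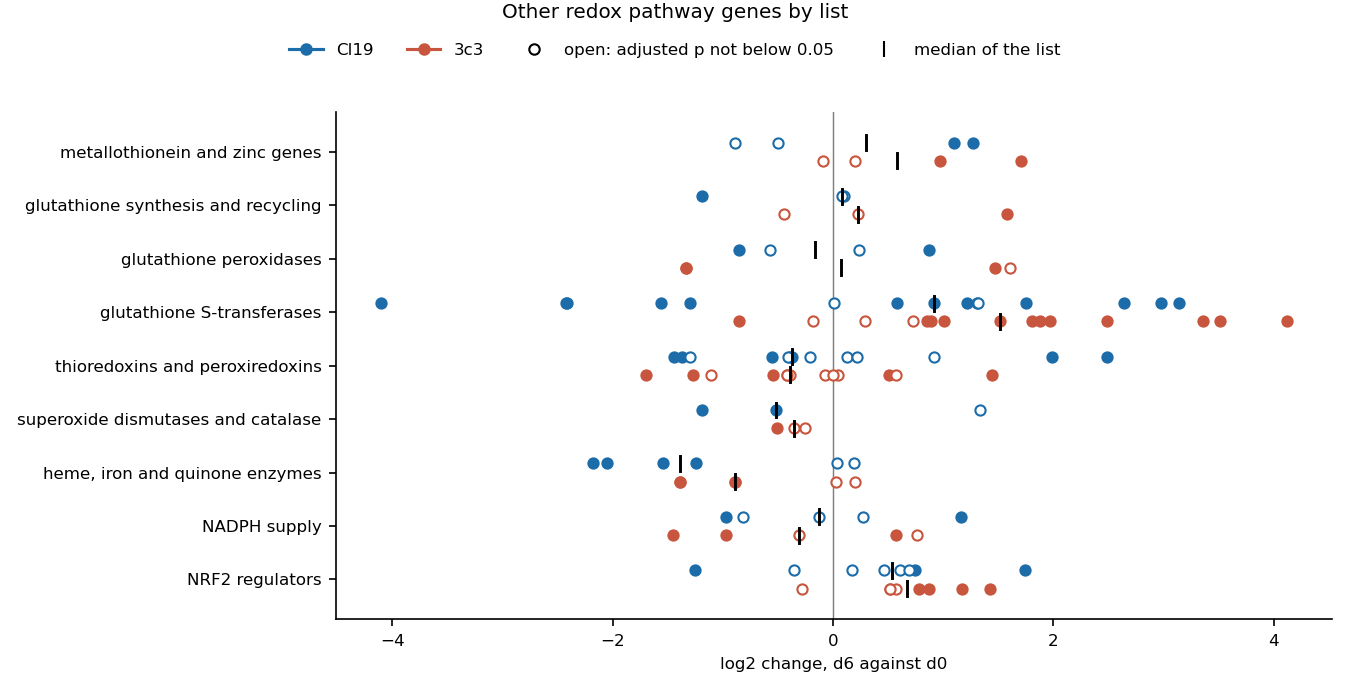
Log2 change from d0 to d6 of the 61 other tested pathway genes by list and line, with open symbols where limma's adjusted p was not below 0.05 and a black mark at the median of each list. Glutathione S-transferases run from -4.10 to 4.12, with medians of 0.92 in Cl19 and 1.52 in 3c3, and the 4 heme, iron and quinone genes past the threshold are lower in each line.

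Heme, iron and quinone enzymes moved the other way, with 4 of 6 lower and none higher in each line on d6 past limma's threshold. Of all probes, 30.3% were lower in Cl19 and 28.6% in 3c3. Both biliverdin reductases, which act after heme oxygenase, were among them: *Blvra* fell 4.15-fold in Cl19 and 2.61-fold in 3c3 (-2.05 and -1.39, SE 0.17, adjusted p = 7.1e-09 and 1.8e-06). *Blvrb* fell by 1.54 in Cl19 and 0.89 in 3c3 (log2 change -1.54 and -0.89, adjusted p = 3.8e-05 and 0.0067), and in 3c3 the change was -0.59 without replicate 2 (adjusted p = 0.14). The quinone reductase *Nqo2* fell 4.53-fold in Cl19 and 2.61-fold in 3c3 (adjusted p = 8.7e-09 and 4.4e-06). Unlike *Nqo1*, its lowest mean was on d6.

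Of 13 thioredoxin and peroxiredoxin genes, Cl19 had 2 higher and 5 lower on d6, beside 22.0% and 30.3% of all probes. In 3c3, 2 were higher and 4 lower, beside 19.7% and 28.6%. *Prdx5* rose 5.60-fold in Cl19 and 2.71-fold in 3c3 (2.49 and 1.44, SE 0.21, adjusted p = 1.2e-08 and 1.7e-05), while the mitochondrial *Prdx3* fell 2.71-fold and 2.42-fold (adjusted p = 5.8e-06 and 3.3e-05). Mitochondrial thioredoxin, *Txn2*, fell by 0.55 and 0.54 (log2 change -0.55 and -0.54, adjusted p = 0.0020 and 0.0027). Of the peroxidases other than the members, *Gpx4*, which protects membrane lipids, rose 1.83-fold and 2.77-fold (adjusted p = 8.6e-06 and 2.2e-08). The epithelial *Gpx2* fell by 1.33 in 3c3 (log2 change -1.33, adjusted p = 0.0027), and in Cl19 it changed by -0.85 (adjusted p = 0.038), or -0.49 without replicate 1 (adjusted p = 0.31).

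Copper and zinc superoxide dismutase, *Sod1*, fell by 0.52 in Cl19 and 0.51 in 3c3 (log2 change -0.52 and -0.51, adjusted p = 0.0030 and 0.0045), and of the 3 genes of superoxide dismutases and catalase 2 were lower in Cl19 and 1 in 3c3. Of 5 genes of NADPH supply, Cl19 had 1 higher and 1 lower, and 3c3 had 1 higher and 2 lower, among them *Tkt* at -0.97 in both lines (adjusted p = 6.2e-05 and 8.6e-05). Of 3 tested genes of glutathione synthesis and recycling, 1 was lower in Cl19 and 1 higher in 3c3. Of 4 metallothionein and zinc genes, 2 were higher in each line on d6, but only *Mt2A* was so in both. The other was *Slc30a2* in Cl19 (means 9.41 on d0 and 10.68 on d6, against 7.20 and 7.11 in 3c3). In 3c3 it was *Slc30a1* (8.21 and 9.19, against 8.43 and 7.54 in Cl19). Among 8 regulators of NRF2, Cl19 had 2 higher and 1 lower, and 3c3 had 5 higher. Beside the counts of these lists stand 22.0% higher and 30.3% lower of all probes in Cl19, and 19.7% and 28.6% in 3c3. The small MAF factors *Maff* (1.74 in Cl19 and 1.17 in 3c3, adjusted p = 8.3e-05 and 0.0038) and *Mafg* (0.75 and 0.78, adjusted p = 0.019 and 0.017) rose in both, but *Mafg* was at 0.42 and 0.51 with scaling by the 75th percentile (adjusted p = 0.18 and 0.11), and without 3c3 replicate 2 both had an adjusted p above the threshold in 3c3 (0.74 for *Maff*, adjusted p = 0.13, and 0.47 for *Mafg*, adjusted p = 0.21).

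The genes most like the 2 members with the largest mean d6 change were sought by correlation of the 8 means per line and day over 10674 genes, as a description over points that share slides and lines. For *Mt1a* these were *Myo7a* (r = 0.991), *Eomes* (0.987) and *Akap9* (0.979), and for *Gclc* they were *Slc43a3* (0.996), *Il27ra* (0.994) and *Rhox13* (0.993). *Myo7a* ran from 6.33 on d0 to 9.19 on d6 in Cl19 and from 4.61 to 7.08 in 3c3, higher in Cl19 on each day as *Mt1a* was. *Akap9* followed the same shape with a small range, 9.81 to 10.71. *Slc43a3* went from 8.72 to 3.14 in Cl19 and from 8.79 to 7.93 in 3c3.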

How the data were processed

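RNA of 26 samples was hybridised to 1-colour Agilent rat arrays, 1 sample per array. The authors scanned them with Agilent Feature Extraction, for which the submitters' processing notes give version 10.1.1.1, and deposited the background-corrected intensity of each spot together with a table of log2 values. That deposited log2 table equals log2 of the scanner's processed signal to within 5.2e-14 and is thus not normalized between arrays. Probe positions are those of rn4 in the scanner files.

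The processed intensity of 43379 gene features was taken to log2 and quantile normalized over the 26 arrays, flagged features were dropped, and features of 1 probe were averaged (41012 probes). No gene feature was saturated. limma 3.58.1 in R 4.3.3 fitted 9 groups, with Benjamini-Hochberg adjustment over the 24441 probes that some group measured well above background on all its arrays, and a threshold of 0.05. Tables were made with Python 3.11.15. The fit was tested on simulated data. A probe not well above background on any array of a group gives a bound only. The methods call the 3 arrays of a line and day biological replicates, each line being 1 clone. For the 2 primary SMC arrays the sources used here give no such statement, and the spread between them may be technical. All 9 groups share 1 estimate of the spread per probe, so limma's p-values for primary SMCs rest mostly on the spread between rMAPC arrays. The median standard deviation over tested probes was 0.08 in primary SMCs and 0.18 to 0.32 in the rMAPC groups. The number of arrays limits the precision.

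The 10 genes, the pathway lists and the marker lists were chosen with earlier results of these data known. Every member is named, and in each pathway list up to 3 genes past the threshold with the same sign in both lines on d6, and measured well above background on each array of these days, are named by size of change; others were chosen after their values were seen. Replicate numbers share a slide within a line. Their deviations correlated above 0.1 in 16 of 18 pairs of arrays in Cl19 and 18 of 18 in 3c3, d0 against d6 included in 6 of 6 cases. In all, 20 alternative settings were listed, among them scaling by the 75th percentile, normexp background correction, the authors' log2 table, a floor at the detection limit, the mean over all probes of a gene, the replicate number and the slide as blocks, 1 fit per line, the methods' t-test, and leaving out each replicate. Promoters come from RefSeq on GRCr8, and all members and *Mt2A* were matched by accession.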

Additional observations from a re-analysis of the deposited data

Results flagged for a closer look

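The change from d0 to d6 differed between the lines past limma's threshold for 2 of the 8 tested members. It was higher in Cl19 by 1.16 for *Hmox1* (adjusted p = 0.014) and lower by a log2 difference of -2.65 for *Gclc* (adjusted p = 0.012), and neither difference kept its call without 3c3 replicate 3.

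Of the 61 other pathway genes tested, 14 differed, beside 17.4% of all probes. Most were glutathione S-transferases: *Gsta2* (-5.91, adjusted p = 1.6e-07), *Gstm2* (-2.45, 2.2e-05), *Gstk1* (-2.31, 1.0e-04), *Gsta4* (-2.25, 1.6e-04), *Gstm1* (-1.96, 3.3e-04), *Mgst2* (-2.90, 0.0019), *Gsto1* (-1.57, 4.8e-04) and *Mgst3* (-1.57, 5.6e-04), each with a lower change in Cl19. Lower changes in Cl19 were also found for the zinc exporter *Slc30a1* (-1.86, adjusted p = 0.022), *Gpx4* (-0.60, 0.022), *Nqo2* (-0.79, 0.038) and *Keap1* (-0.97, 0.018). Higher ones were found for *Glrx* (2.62, adjusted p = 0.034) and *Prdx5* (1.05, 0.019). The summed rMAPC markers (49.86 to 53.83 in Cl19 and 65.59 to 65.97 in 3c3), fibroblast markers (34.57 to 36.38 and 20.10 to 24.74) and leukocyte markers (24.55 to 24.99 and 29.32 to 31.72) also lay apart between the lines on d6. So did the smooth muscle markers (54.04 to 54.95 and 49.52 to 53.72) and the endothelial markers (11.29 to 14.16 and 18.78 to 20.61). The part of these markers in the differences was not tested.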

How the results depend on the processing

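Over 162 counts of members under an alternative, 148 stayed within 1.5 times the value reported and 14 moved. Members past the threshold on d6 in 3c3 went from 5 to 2 with the methods' t-test after adjustment. On d2 in Cl19 they went from 3 to 5 with the replicate block and with the slide as a random block. With the mean over all probes, the lines on d0 differed in 1 member instead of 2, and primary SMCs from Cl19 d6 in 3 instead of 5. Leaving out 1 replicate at a time gave 2 to 5 members on d6 in 3c3, 2 to 3 on d2 in Cl19, 1 to 2 between the lines on d0, 3 to 5 for primary SMCs against Cl19 d6, 0 to 2 for the difference of the d6 change, 5 to 5 on d6 in Cl19, 4 to 5 on d2 in 3c3 and 5 to 6 for primary SMCs against 3c3 d6. The replicate block changed no other call of a member than those given in the report. The slide as a random block also gave a call for *Mt3* on d2 in 3c3 (-1.45, adjusted p = 0.035, against 0.053 without it).

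Of 1776 single-gene values, 1633 kept direction and side of the threshold, 86 lost and 25 gained their call, and 32 turned direction, for causes that were not tested. With the authors' table, *Mt1a* in primary SMCs against Cl19 d6 was -0.31, *Mt3* against 3c3 d6 -0.26, *Gclc* against Cl19 d6 -1.78 and *Gpx3* against Cl19 d6 -2.22, and *Gpx3* was 0.06 and 0.20 on d6, 0.16 on d2 in Cl19 and 0.05 between the lines on d0. That table is not normalized between arrays, and its median over all tested probes in primary SMCs was -2.17 against Cl19 d6 and -2.09 against 3c3 d6. With the mean over all probes, *Mt1a* was -0.81 in primary SMCs against Cl19 d6 and 0.11 for the d6 difference (0.13 with normexp). Its dimmer probe was not well above background on the primary SMC and d0 arrays that enter these means. The floor gave -0.45 for the d6 difference of *Mt3*, normexp -0.03 for *Gclc* in primary SMCs against Cl19 d6, and the 75th percentile 0.13 and 0.39 for *Gpx1* in primary SMCs. Leaving out 1 replicate at a time, *Nqo1* in primary SMCs against Cl19 d6 ran from -0.69 to 0.32, *Gclc* between the lines on d0 from -0.60 to 0.19, and the d2 difference of *Txnrd1* from -0.09 to 0.20 (-0.07 without the array labelled Cl19 d2 replicate 1). *Gpx3* ran from -0.73 to 0.10 on d6 in Cl19, -0.29 to 0.14 on d6 in 3c3, -0.14 to 0.03 on d2 in Cl19, -0.07 to 0.02 between the lines on d0, -0.25 to 0.53 in primary SMCs against Cl19 d6, -0.35 to 0.15 against 3c3 d6 and -0.59 to 0.24 for the d6 difference. Over all tested probes, the 79 calls for the d2 difference between the lines became 1 without 3c3 replicate 1, 2 and 4 without Cl19 replicates 3 and 2, 7 and 32 without 3c3 replicates 3 and 2, 759 without Cl19 replicate 1 and 856 without its d2 array alone. The 4263 calls for the d6 difference became 2728 without 3c3 replicate 3.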

Other observations

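In primary SMCs, 29 of the 61 other pathway genes were higher and 16 lower than in Cl19 on d6, beside 32.8% and 38.6% of all tested probes, and 27 were higher and 22 lower than in 3c3 on d6, beside 33.4% and 38.1%. *Gpx2*, the epithelial glutathione peroxidase, was not well above background in primary SMCs, at least 140-fold lower than in Cl19 and at least 111-fold lower than in 3c3. *Gsta2*, chosen after its values were seen, was at 4.18 and 4.14 in primary SMCs, below every rMAPC array, and *Mgst2* was at 12.81 and 12.80, above all d6 arrays of both lines. *Nqo2*, lowest on d6 in both lines, was at 9.19 and 9.28 in primary SMCs.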
